A study of Mus musculus with 27 samples.

Results

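The Wnt system of secreted ligands, receptors and inhibitors was followed across mouse neural stem cell (NSC) lines, normal NSCs, tumors grown from the lines and subcutaneous tissue. The genes were all those with a probe set assigned to 1 gene and a symbol of the form Wnt, Fzd, Sfrp or Dkk with a number, plus Lrp5 and Lrp6, 39 of 19937 genes measured. They comprised 19 Wnt ligands, 10 Frizzled (Fzd) receptors, the 2 co-receptors Lrp5 and Lrp6, 4 secreted Frizzled-related proteins (Sfrp1, Sfrp2, Sfrp4 and Sfrp5) and 4 Dickkopf proteins (Dkk1 to Dkk4). Each gene was represented by the probe set with the highest mean over all arrays. Wnt4 alone among the 39 had a second probe set (2 in all).

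Wnt proteins are lipid-modified ligands that bind Frizzled receptors on neighbouring cells. With Lrp5 or Lrp6 as co-receptor they stabilise beta-catenin, which then activates genes together with TCF/LEF factors; with other co-receptors such as Ror2 and Ryk they act on cell polarity and movement without beta-catenin. Secreted Frizzled-related proteins bind the ligands, and Dickkopf proteins bind the Lrp co-receptors. In the nervous system the pathway patterns the neural tube, guides axons and acts on the self-renewal of neural stem cells.

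The 27 samples, 1 array each, were 10 immortalized NSC lines, 2 cultures of normal NSCs, 12 tumors and 3 pieces of subcutaneous tissue (SubQ). Lines 3, 28, 31, 59, 95 and 116 were labelled p53 mutant, and lines 119, 120, 123 and 331 were labelled WT, as were the normal NSCs and the SubQ samples. The tumors came from line 1 (labelled WT), line 31 (p53 mutant), line 59 (p53 mutant) and line 123 (WT), with 3 tumors each, and line 1 was profiled here as tumors alone. All samples, the cultured ones included, carried the same label of host strain, CB17/ICR-Prkdcscid/IcrCrl, the severe combined immunodeficiency (SCID) mouse, and the tissue of the tumors was given as subcutaneous. The ages of the mice, the p53 mutation and the way the lines were immortalized were not given in the sources used here, and each line in culture was measured by 1 array. Replicates were called biological in the labels with nothing further on separate cultures or animals, so the p-values cover how far these samples differ from each other, which may be technical.

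Values were log2 expression levels. Over 19937 genes the SD on an array was 1.75 to 1.87 in cultured cells, 1.63 to 1.79 in tumors and 0.869 to 1.02 in SubQ, and arrays of 1 kind correlated at r = 0.952 to 0.986 among lines, 0.992 between the NSC arrays, 0.936 to 0.985 among tumors and 0.656 to 0.720 among SubQ arrays. The 3 SubQ arrays thus stood apart, with a narrow range of values and low agreement with each other. The neural stem label of the cultures was checked against 9 markers, all 9 of which were above background in both normal NSC arrays and 4 of which (Nes, Sox2, Slc1a3 and Hes5) were in all 10 lines. In the 12 tumors Nes and Hes5 (2 of 9) were above background on every array. Hes5 (1 of 9) was also above it on all 3 SubQ arrays, at 7.23, 7.19 and 7.10, so it did not set the tumors apart from SubQ. Background was set, array by array, at the 95th percentile of 1194 odorant and vomeronasal receptor genes.

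By that measure 31 of the 39 genes were above background on all arrays of at least 1 group. Of the 12 cell arrays none showed Wnt1, Wnt3, Wnt8a, Wnt8b, Fzd10 or Sfrp5 above background (6 genes), and of the 12 tumors none showed 10 of the genes, 7 of them Wnts. Levels below background have no order, so a difference between such levels is given without a fold. Levels of different genes were read by different probes and were not ranked against each other.

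Promoter windows of RefSeq (assembly GRCm38.p6, from 250 bases before to 50 bases after a transcription start) were held for 25 of the 39 genes, 28 windows in all. Windows of 4 genes whose levels separated groups of samples are shown: Fzd7, higher in the lines than in NSCs and low in line 1 tumors; Fzd9 and Wnt7a, lower in the lines than in NSCs; and Sfrp2, which differed most among the lines. They lie at chr1:59481897-59482196 on the plus strand, chr5:135250998-135251297 on the minus strand, chr6:91411304-91411603 on the minus strand and chr3:83766071-83766370 on the plus strand. Capitals mark CG dinucleotides.
Fzd7: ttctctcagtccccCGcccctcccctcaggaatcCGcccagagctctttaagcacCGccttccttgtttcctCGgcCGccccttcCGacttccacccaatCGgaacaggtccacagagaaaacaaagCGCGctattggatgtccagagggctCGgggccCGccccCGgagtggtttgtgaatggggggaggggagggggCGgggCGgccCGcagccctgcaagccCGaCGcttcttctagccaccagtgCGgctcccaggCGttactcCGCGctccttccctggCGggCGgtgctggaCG
Fzd9: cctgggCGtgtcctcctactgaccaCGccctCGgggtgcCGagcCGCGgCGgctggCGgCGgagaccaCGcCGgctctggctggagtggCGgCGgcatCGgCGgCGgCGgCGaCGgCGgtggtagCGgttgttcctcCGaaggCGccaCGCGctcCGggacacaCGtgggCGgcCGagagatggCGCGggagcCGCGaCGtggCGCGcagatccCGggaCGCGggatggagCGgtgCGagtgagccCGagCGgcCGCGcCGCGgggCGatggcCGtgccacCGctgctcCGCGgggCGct
Wnt7a: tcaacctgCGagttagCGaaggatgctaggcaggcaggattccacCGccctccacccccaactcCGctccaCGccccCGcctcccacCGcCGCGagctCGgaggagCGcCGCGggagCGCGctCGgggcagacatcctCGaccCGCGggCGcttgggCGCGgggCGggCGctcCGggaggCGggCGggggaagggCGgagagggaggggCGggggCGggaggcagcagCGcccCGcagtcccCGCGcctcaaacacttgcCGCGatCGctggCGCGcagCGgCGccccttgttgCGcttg
Sfrp2: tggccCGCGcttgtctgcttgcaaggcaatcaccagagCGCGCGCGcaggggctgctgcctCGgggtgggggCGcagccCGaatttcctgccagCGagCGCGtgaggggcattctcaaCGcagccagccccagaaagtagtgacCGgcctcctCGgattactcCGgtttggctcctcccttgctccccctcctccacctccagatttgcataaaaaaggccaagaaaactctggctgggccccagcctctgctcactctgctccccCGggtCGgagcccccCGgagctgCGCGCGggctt
The windows held 24, 53, 42 and 22 CG dinucleotides in that order. The median was 26.5 over the 28 windows of Wnt system genes and 7 over all 32851 windows of the same length. The core of the TCF/LEF motif, CTTTGA on either strand, was in none of the 4 windows shown, in 4 of the 28 windows (14.3%) and in 5257 of all windows (16.0%). Neighbouring pairs with no protein-coding gene between them were Wnt6 and Wnt10a on chromosome 1, Wnt3a with Wnt9a and Wnt9b with Wnt3 on chromosome 11, and Wnt10b with Wnt1 on chromosome 15.

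The 10 immortalized lines were first compared with the 2 normal NSC cultures. The receptors separated them: Fzd6, Fzd2, Fzd7 and Fzd8 were higher in the lines, Fzd3 and Fzd9 were lower, and among the ligands Wnt7a was lower. These 7 of 39 genes passed limma's test at an adjusted p under 0.05 (4 higher, 3 lower), against 15% of all genes tested (6.79% higher and 8.22% lower), so the share of the whole set was close to the background while 6 of the 10 receptors were among the 7. No co-receptor (0 of 2), Sfrp (0 of 4) or Dkk (0 of 4) passed. The median log2 change was 0.05 over the 39 genes and −0.01 over all genes. In whole cultures as in tissue, fewer cells of a type and less RNA per cell cannot be told apart.

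**Figure D1:**
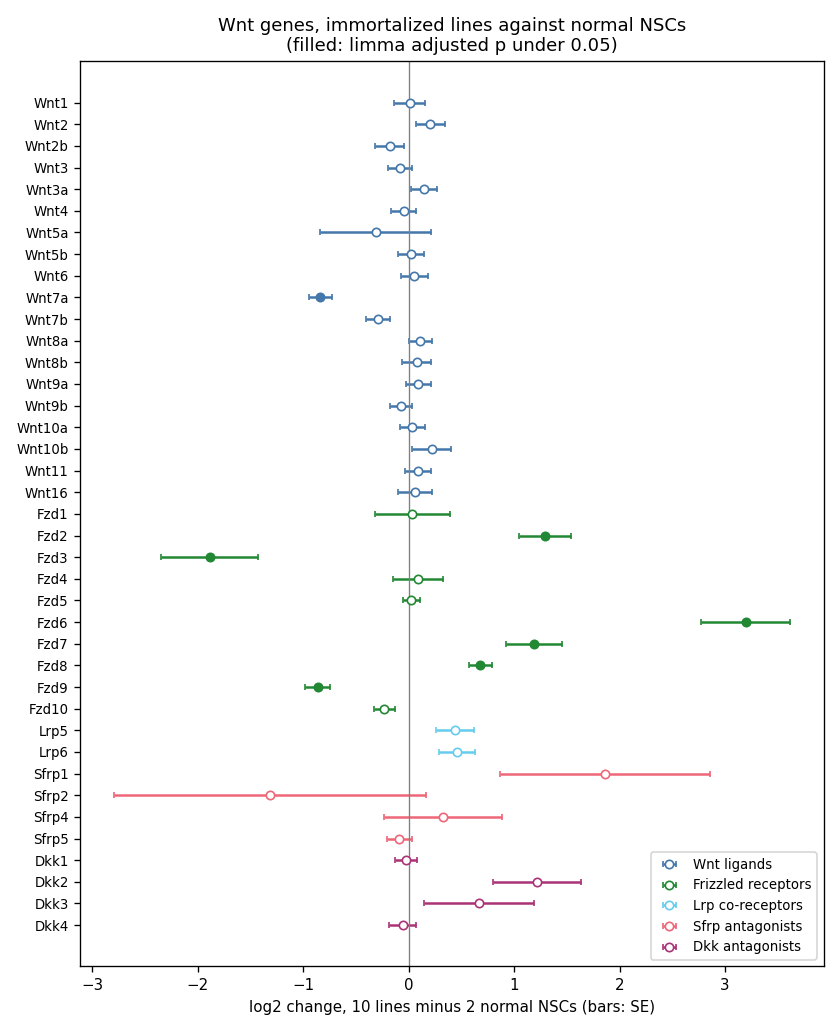
Log2 change of each of the 39 genes in the 10 immortalized lines against the 2 normal NSC arrays, with the standard error from limma; filled points passed at an adjusted p under 0.05. Fzd6 lies farthest to the right at 3.20, while Fzd3, Fzd9 and Wnt7a lie to the left among the called genes and nearly all other Wnts lie close to 0.

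Fzd6, a Frizzled known for its part in planar cell polarity, was at 6.62 and 6.64 in the NSCs, which was not above background on either array. The lines spanned 8.62 to 10.93 with a median of 9.997, and the lowest line lay well above both NSC cultures. The log2 change was 3.20 ± 0.42 SE (limma adjusted p = 0.000142), and the lines were at least 8.04-fold higher than the background of the NSC arrays. The call held under all 24 alternative settings (adjusted p 1.23e-06 to 0.00584).

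Fzd2, a receptor that can take up Wnt5a, was at 7.22 and 7.49 in the NSCs and at 8.11 to 9.16 (median 8.72) in the lines. The groups did not overlap, and the change was 1.29 ± 0.25 (2.45-fold, limma adjusted p = 0.00285). Fzd7, a receptor of the beta-catenin branch linked to stem cell maintenance, was at 7.62 and 7.71 in the NSCs and at 8.22 to 9.44 (median 8.85) in the lines, again without overlap. Its change was 1.19 ± 0.27 (2.28-fold, limma adjusted p = 0.00814). Without NSC replicate 1 the adjusted p was 0.071 for Fzd2 and 0.107 for Fzd7, and without NSC replicate 2 that of Fzd7 was 0.0812. Fzd8 lay in a narrow band of 6.83 to 7.09 (median 7.03) in the lines, above 6.09 and 6.58 in the NSCs, neither of which was above background. Its change of 0.68 ± 0.11 passed (limma adjusted p = 0.000803), with a lower bound of 1.14-fold against the background of the NSC arrays.

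Fzd3, which guides axons and acts with Fzd6 in closing the neural tube, was at 10.87 and 10.68 in the NSCs and at 8.20 to 9.92 (median 8.57) in the lines. Lines 119 (9.92), 120 (9.80), 31 (9.64) and 95 (9.26) were the 4 highest, and all 10 were below both NSC cultures. The change was −1.89 ± 0.46 (3.70-fold lower, limma adjusted p = 0.0125), and it did not pass without NSC replicate 1 (adjusted p = 0.141), without NSC replicate 2 (0.102) or with the 4 WT lines alone (0.077). Fzd9, a receptor found in neural precursors, was at 8.11 and 8.04 in the NSCs and at 6.94 to 7.54 (median 7.19) in the lines, with a change of −0.86 ± 0.12 (1.82-fold lower, limma adjusted p = 0.000175). Thus Fzd6 and Fzd3 moved in opposite directions between the same samples.

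Wnt7a, a ligand that acts on neural progenitors and on brain vessels, was at 7.35 and 7.34 in the NSCs. In the lines it lay between 6.24 and 6.66 (median 6.52), where 1 of 10 lines was above background. The change was −0.84 ± 0.11 (limma adjusted p = 0.000138), and no fold is given because the level in the lines was mostly below background. The other 18 Wnts had changes from −0.31 to 0.22, and none passed; Wnt5a, the main ligand of the beta-catenin-independent branch, had −0.31 ± 0.53.

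Groups did not overlap in 11 of the 39 genes, against 21.3% of all genes: the 7 called, Dkk2, Lrp5, Lrp6 and Fzd10. Dkk2, which can inhibit or weakly activate through Lrp6, was at 6.89 and 6.75 in the NSCs and at 7.07 to 9.24 (median 8.04) in the lines (change 1.22 ± 0.42, limma adjusted p = 0.0688). Lrp5 and Lrp6 differed by 0.44 ± 0.18 (adjusted p = 0.126) and 0.46 ± 0.17 (adjusted p = 0.0996), and Fzd10, never above background in cells, by −0.23 ± 0.10 (adjusted p = 0.145).

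**Figure D2:**
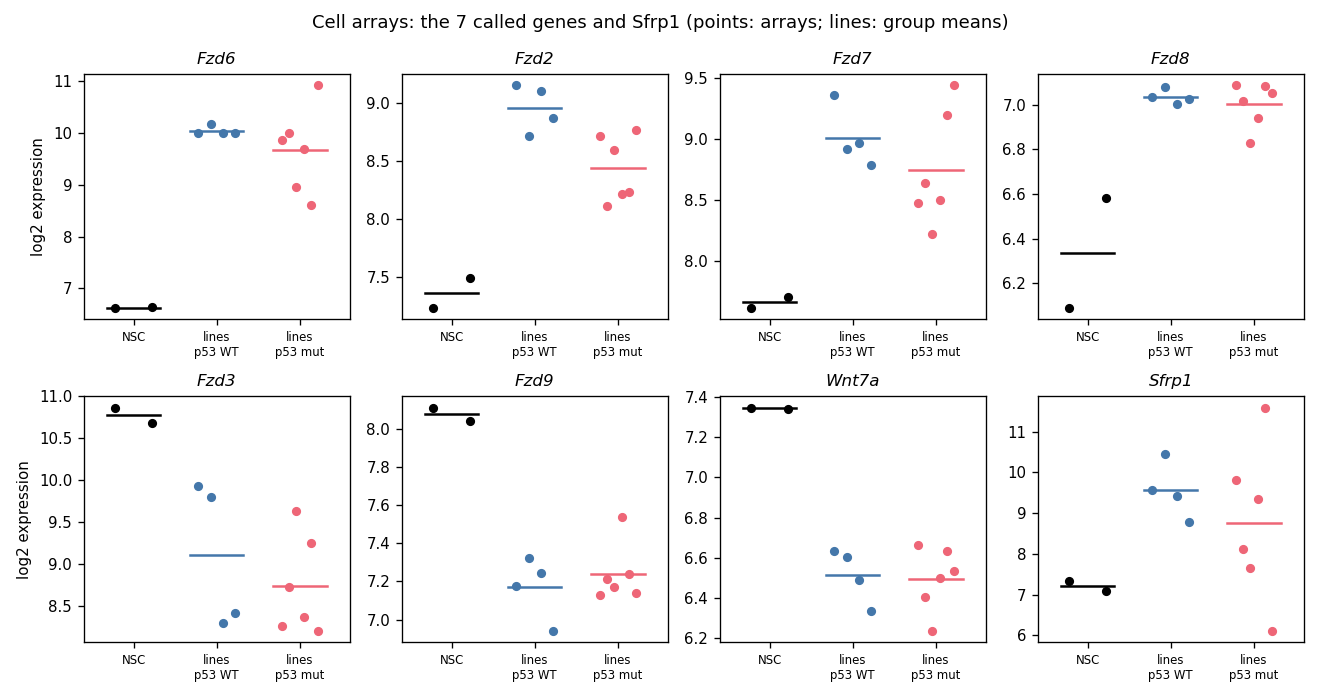
Log2 level on each of the 12 cell arrays of the 7 called genes and Sfrp1, with p53 mutant lines, WT lines and normal NSCs as separate groups of points. The lines and the NSCs occupy separate ranges in each of the 7 called genes. In Sfrp1 line 116 (6.10) lies below the NSCs (7.34 and 7.09) and all other lines lie above them.

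The Wnt system genes that spread most among the lines were 3 secreted inhibitors, Sfrp2, Sfrp1 and Sfrp4. Sfrp2 had an SD of 2.28 over the 10 lines, rank 4 of 19937 genes, and Sfrp1 had 1.53, rank 56, while the median SD was 0.18 over all genes and 0.17 over the 39. Sfrp2 was at 12.88 in line 116, at 9.03 in line 120, at 8.94 in line 331, at 8.33 in line 123 and at 5.71 to 6.39 in the other 6, where it was not above background. The NSCs, at 8.85 and 8.88, lay between these levels. Sfrp1 ran from 6.10 in line 116 through a median of 9.39 to 11.59 in line 95, against 7.34 and 7.09 in the NSCs. Line 116 was thus the highest of the lines in Sfrp2 and the lowest in Sfrp1. Neither gene passed against the NSCs (Sfrp1 1.87 ± 0.99, limma adjusted p = 0.27; Sfrp2 −1.31 ± 1.48, 0.675), while Sfrp1 did pass with the 4 WT lines alone (2.34, adjusted p = 0.00927). SDs of 0.86 for Sfrp4, 0.80 for Wnt5a and Dkk3, 0.70 for Fzd3, 0.64 for Fzd6 and 0.63 for Dkk2 followed.

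**Figure D3:**
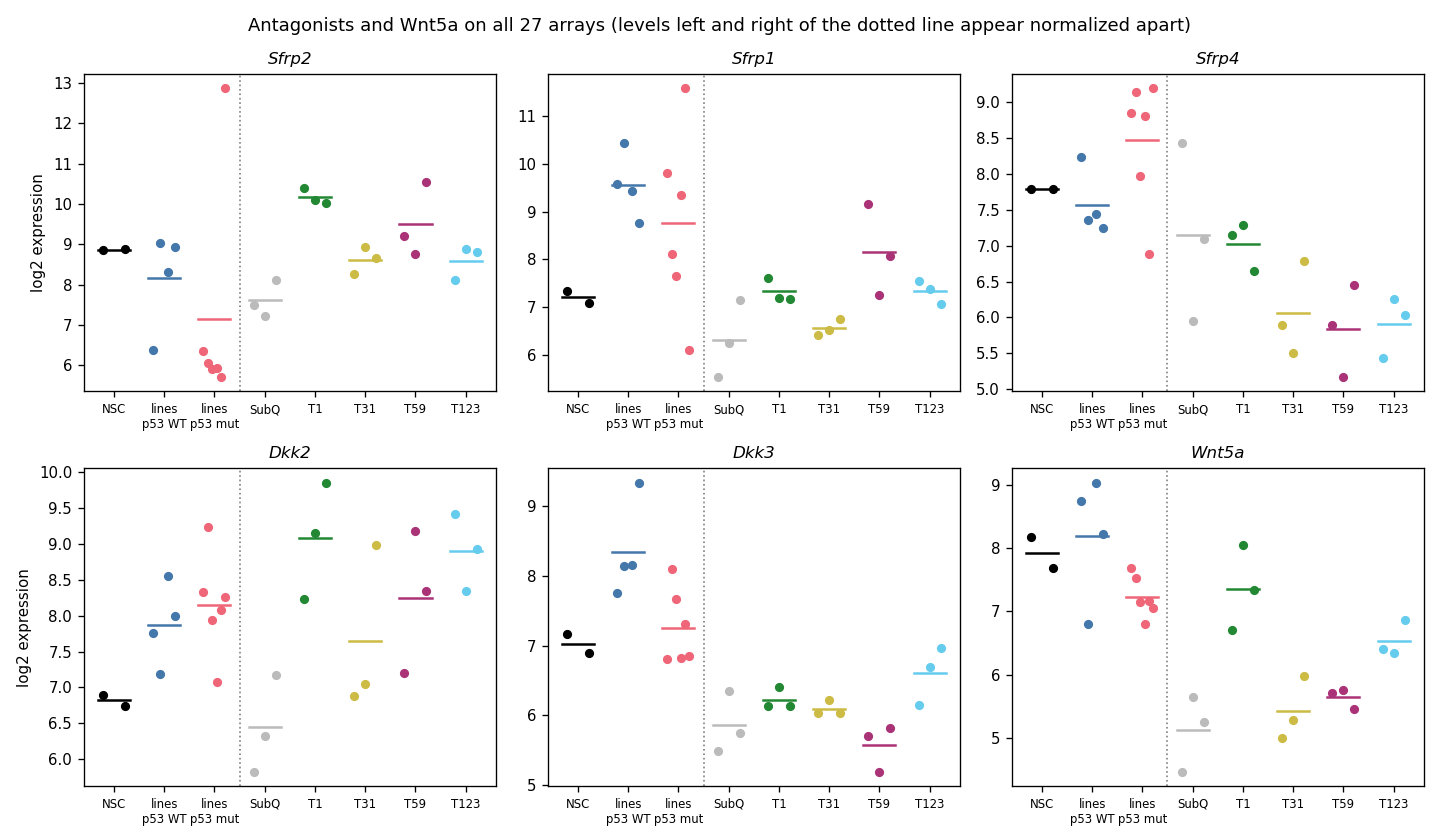
Log2 level of antagonists and Wnt5a on each array, by group; the dotted line separates cell arrays from tissue arrays, which appear to have been normalized apart and are not to be compared across it. Sfrp2 runs from 5.71 to 12.88 among the lines and from 8.12 to 10.54 among the tumors.

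Around these genes, 68 further genes of the pathway were read. Of these, 13 passed between lines and NSCs, 5 higher and 8 lower, and their median change was 0.06. Wls, the carrier that brings Wnts to the cell surface, was higher (10.15 against 8.18, change 1.97 ± 0.24, limma adjusted p = 6.45e-05), while Porcn, the enzyme that attaches the lipid, had a change of −0.01. The other increases were those of the polarity protein Vangl1 (0.70), the receptor Ryk (0.69), the scaffold Axin1 (0.58) and the coactivator Bcl9l (0.43). Apc, the scaffold of the beta-catenin destruction complex, had the largest decrease (−1.52 ± 0.19, adjusted p = 0.000109), followed by the Frizzled ligand Ndp (−1.37), Daam1 (−1.21), the feedback inhibitor Nkd1 (−0.86), Vangl2 (−0.85) and Celsr2 (−0.69). The usual target gene of beta-catenin, Axin2, had −0.91 ± 0.30 (adjusted p = 0.0576), Lef1 had 0.92 (adjusted p = 0.142), Ctnnb1, which encodes beta-catenin, −0.38 (adjusted p = 0.0643) and Ror2 −0.07. By list, 1 of 2 secretion genes, 1 of 16 other extracellular modulators, 0 of 5 R-spondin receptors and ligases, 5 of 16 polarity and alternative receptor genes, 5 of 20 cascade genes, 0 of 3 TCF/LEF factors and 1 of 12 feedback targets passed. Where a list had 0, limma's unadjusted p was under 0.05 in 2 R-spondin receptors and ligases and 1 TCF/LEF factors, and in 2 co-receptors, 0 Sfrps and 1 Dkks.

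Cell type markers moved in the same comparison. The summed level of 9 neural stem markers, as log2, was 10.30 to 11.49 in the lines and 14.40 to 14.42 in the NSCs, and 6 of the 9 were lower, with Fabp7, a fatty acid carrier of radial glia, changed by −6.88. That of 6 mural cell markers was 12.56 to 13.30 in the lines and 9.67 to 9.73 in the NSCs, through Acta2 (5.56) and Pdgfrb (3.29). Notch3 was lower (−0.29, adjusted p = 0.0287), Cspg4 (−0.46), Rgs5 (0.03) and Myh11 (0.0020) did not pass, and the median of the 6 was 0.01. The summed level of 10 fibroblast markers was 11.18 to 13.60 against 11.11 to 11.24, and 2 of the 10 passed as higher while 8 did not pass. The part of these cell type markers in the receptor changes was not tested.

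Between the 6 p53 mutant and the 4 WT lines no gene of the set passed (0 of 39, limma), against 0.0201% of all genes (4 in all). At an unadjusted p under 0.05 there were 5 of the 39, while 8.53% of all genes were. The 5 were all at lower mean levels in the mutant lines: Dkk3 (−1.09 ± 0.34, limma adjusted p = 0.419), Wnt5a (−0.97 ± 0.37, 0.506), Fzd2 (−0.52 ± 0.16, 0.412), Lrp5 (−0.34 ± 0.12, 0.477) and Lrp6 (−0.34 ± 0.12, 0.446). Dkk3, a divergent Dickkopf, was at 6.80, 8.10, 7.67, 6.82, 7.31 and 6.85 in mutant lines 3, 28, 31, 59, 95 and 116 and at 7.76, 8.15, 8.16 and 9.33 in WT lines 119, 120, 123 and 331, so the groups overlapped. Groups were separate in 1 of the 39 genes, Wnt3a, against 1.69% of all genes. None of 68 further genes of the pathway passed by limma (0 of 68, and 10 at an unadjusted p under 0.05).

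Single lines set the size of some of these differences. Wnt5a was at 6.80 in line 120 and at 8.22 to 9.03 in the other WT lines, and without line 120 its difference was −1.44 ± 0.22 (limma adjusted p = 0.127). Sfrp2 differed by −1.03 ± 1.31 with all lines and by −2.17 ± 0.47 without line 116 (adjusted p = 0.147). Sfrp4, higher on average in the mutant lines (0.91 ± 0.43), differed by 1.23 ± 0.27 without line 95 (adjusted p = 0.336). No line left out brought any of the 39 past the threshold.

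The 12 tumors were next compared with the 3 SubQ samples. Of the 39 genes 30 passed (9 higher and 21 lower in tumors), against 76.5% of all genes (30.7% higher and 45.8% lower), so a call in this comparison sets a gene apart from few others. The 9 higher were the receptors Fzd1, Fzd2, Fzd3 and Fzd6, the co-receptor Lrp6, the inhibitors Sfrp1, Sfrp2 and Dkk2, and the ligand Wnt5a. With array weights Lrp6 alone of the 9 kept its call, and the other 8 had limma adjusted p from 0.0752 (Dkk2) to 0.285 (Wnt5a). Tumors of the same line entered this fit as separate samples. With the tumors of a line averaged, the calls of Sfrp1 (limma adjusted p = 0.0595) and Wnt5a (0.0587) ended. So did those of the lower genes Fzd4, Fzd5, Fzd9, Sfrp5, Wnt4, Wnt7b, Wnt9b and Wnt10a (0.0587 to 0.0925). With tumor line as a random block the call of Fzd1 ended (0.0819). Of the 19 Wnts 15 passed with lower log2 values in tumors, of which 6 were not above background on any of the 15 tissue arrays (8 of the 39 genes were not). Background itself was 6.30 to 6.49 on the SubQ arrays and 4.99 to 5.44 on the tumor arrays. Wnt11 was above it on 0 of 3 SubQ arrays and 12 of 12 tumors, and Wnt10a, Wnt7b and Wnt9b on 1 of 3 and 12 of 12, so for these 4 a lower log2 value was not a lower level relative to background. For Wnt4 and Wnt9a (3 of 3 SubQ arrays) and Wnt5b (2 of 3) the lower log2 value likewise did not show a lower level relative to background. The same held for the receptors Fzd4, Fzd5 and Fzd9, above background on 2, 1 and 2 of 3 SubQ arrays and on 12 of 12 tumors. The median change was −0.73 over the Wnts, −0.48 over the 39 genes and −0.28 over all genes. With arrays centred on their medians the median over all genes was −0.14 and the calls were 9 higher and 17 lower, and after quantile normalization −0.11 with 5 higher and 20 lower.

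Lrp6 was at 7.85 to 8.43 (median 8.06) in the tumors and at 6.63, 6.94 and 7.20 in SubQ. The groups did not overlap, and the change was 1.19 ± 0.15 (2.28-fold, limma adjusted p = 1.42e-06). After quantile normalization it was 0.02 (adjusted p = 0.938). Dkk2 was at 6.88 to 9.85 (median 8.64) in the tumors and at 5.83, 6.33 and 7.18 in SubQ, with the highest SubQ sample above the lowest tumors and 1 of 3 SubQ arrays above background. Its change was 2.02 ± 0.53 (limma adjusted p = 0.00232), with no fold given against a group mostly below background. Sfrp2 was at 8.12 to 10.54 (median 8.91) in the tumors and at 7.49, 7.22 and 8.13 in SubQ, where the highest SubQ sample lay just above the lowest tumor. Its change was 1.62 ± 0.45 (3.07-fold, limma adjusted p = 0.00338), and 0.01 after quantile normalization (adjusted p = 0.984).

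Fzd3 was at 5.26 to 8.54 (median 6.37) in the tumors and at 5.64, 4.85 and 4.94 in SubQ, where none was above background (change 1.38 ± 0.53, limma adjusted p = 0.0238; at least 1.08-fold). Without SubQ replicate 2 or 3 its adjusted p was 0.0953 or 0.083. Fzd6 was at 6.46 to 8.49 (median 7.75) against 6.18, 6.60 and 6.54, and the 3 line 1 tumors (6.69, 6.46 and 6.62) and the third line 31 tumor (6.62) lay close to the SubQ levels. Its change was 1.08 ± 0.39 (2.12-fold, adjusted p = 0.0174; 0.0815 without SubQ replicate 1 and 0.336 after quantile normalization). Wnt5a was at 5.01 to 8.05 (median 6.16) against 4.47, 5.65 and 5.25, none of these above background, and its change of 1.12 ± 0.48 was near the threshold (adjusted p = 0.0439, and from 0.00363 to 0.285 over 27 alternatives, with SubQ replicate 1 or 3, tumor 1 or 3 of line 1 or any tumor of line 123 each ending the call when left out). Fzd2, above background on no SubQ array and all 12 tumors, had 0.62 ± 0.18 (adjusted p = 0.00415), with no fold because the mean of the tumors did not exceed the SubQ background. Sfrp1 had 1.03 ± 0.43 (0.0365; 0.253 without SubQ replicate 1, 0.0979 without replicate 2 and 0.0502 without tumor 3 of line 59) and Fzd1 0.77 ± 0.33 (0.045). Fzd1 changed sign after quantile normalization (−0.11, adjusted p = 0.789), and its call ended without any SubQ sample or without tumor 1 of line 31, tumor 3 of line 59 or any tumor of line 123 (adjusted p 0.0525 to 0.156).

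Of the lower ligands, Wnt9a was above background on all 15 tissue arrays, at 5.78 to 6.11 (median 5.90) in the tumors and at 6.86, 6.79 and 6.95 in SubQ. The groups did not overlap (change −0.93 ± 0.10, limma adjusted p = 3.72e-07). Background was also higher on the SubQ arrays (6.30 to 6.49) than on the tumor arrays (4.99 to 5.44). The change of Wnt9a therefore did not show a lower level relative to background. Wnt7a had −1.43 ± 0.18 (adjusted p = 2.04e-06), Wnt6 −1.16, Wnt8a −1.14, Wnt1 −1.13 and the receptor Fzd10 −1.20, where Wnt1 and Wnt8a were below background on all tissue arrays and Wnt7a and Fzd10 on all but 1. Groups did not overlap in 15 of the 39 genes, against 52.5% of all genes. Fzd7 and Lrp5 did not pass (0.28, adjusted p = 0.429, and 0.14, adjusted p = 0.439), and Fzd7 was lower in tumors after quantile normalization (−0.995, adjusted p = 0.0117).

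Of the 68 further pathway genes 42 passed, 17 higher and 25 lower. Wls (3.37), Ctnnb1 (3.15), the target gene Myc (2.72), the tankyrases Tnks (2.67) and Tnks2 (2.33) and the kinase Csnk1a1 (2.45) had the largest increases. Cer1 (−1.53), Dact2 (−1.34), the ligand-binding inhibitor Wif1 (−1.27), Sostdc1 (−1.06), Draxin (−1.05) and Rspo2 (−0.95) had the largest falls in log2 value. Rspo2 (5.30 to 5.67) and Wif1 were not above the SubQ background of 6.30 to 6.49, and Cer1 was at 6.78, 6.11 and 5.79 there. Cascade genes were 12 higher and 2 lower of 20, and extracellular modulators 0 higher and 14 lower of 16. Background was lower on the tumor arrays (4.99 to 5.44), so these lower values did not by themselves show lower levels relative to background. Axin2 (−0.46, adjusted p = 0.0519), Lef1 (−0.15), Porcn (0.44) and Ror2 (−0.23) did not pass. In the same samples the summed level of 8 macrophage markers was 11.74 to 13.07 in the tumors and 8.92 to 9.30 in SubQ, that of 10 fibroblast markers 11.43 to 13.16 against 11.07 to 11.80 and that of 7 adipocyte markers 7.96 to 11.16 against 10.38 to 10.94. The 11.16 was that of tumor 1 of line 1, and the next highest tumor was at 9.175. Of the adipocyte markers 7 of 7 were lower in tumors. Endothelial markers (7) summed to 9.08 to 11.10 against 8.55 to 8.72 and mural markers (6) to 9.56 to 12.47 against 8.96 to 9.13. The 7 endothelial markers divided into 3 that passed as higher and 4 that did not pass. Mural markers went both ways, 2 higher and 3 lower, with a median change of −0.15. Among the 10 fibroblast markers 6 passed as higher and 1 as lower. Lower in tumors were 6 of 8 skeletal muscle and 4 of 8 keratinocyte markers. The part of these cell type markers in these results was not tested.

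The 4 sets of tumors differed among themselves in Wnt5a, Fzd7 and Fzd3. These 3 of 39 genes passed limma's F test over the 4 line means, against 5.07% of all genes. Line 1 tumors differed from the mean of the other 3 lines in 5 genes, against 4.62% of all genes: Wnt5a, Fzd3 and Sfrp2 were higher (2.33% of all genes were) and Fzd7 and Fzd6 lower (2.29%). The contrasts of the 4 lines share arrays and are not independent. Over the 12 tumors the SDs of Fzd3 (0.99), Dkk2 (0.98), Wnt5a (0.89), Sfrp2 (0.83) and Wnt2 (0.79) were the 5 largest of the set, against a median of 0.24 over all genes.

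Wnt5a was at 6.70, 8.05 and 7.33 in line 1 tumors, at 5.01, 5.29 and 5.99 in line 31, at 5.72, 5.76 and 5.46 in line 59 and at 6.40, 6.34 and 6.86 in line 123. Line 1 was the highest on average, line 123 came next, and the lowest line 1 tumor lay under the highest of line 123. Means differed by up to 1.94 (F test, limma adjusted p = 0.00998), and line 1 exceeded the mean of the others by 1.49 ± 0.26 (2.81-fold, adjusted p = 0.00659). Both calls held under all 22 alternatives, with adjusted p up to 0.0428 and 0.0418.

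**Figure D4:**
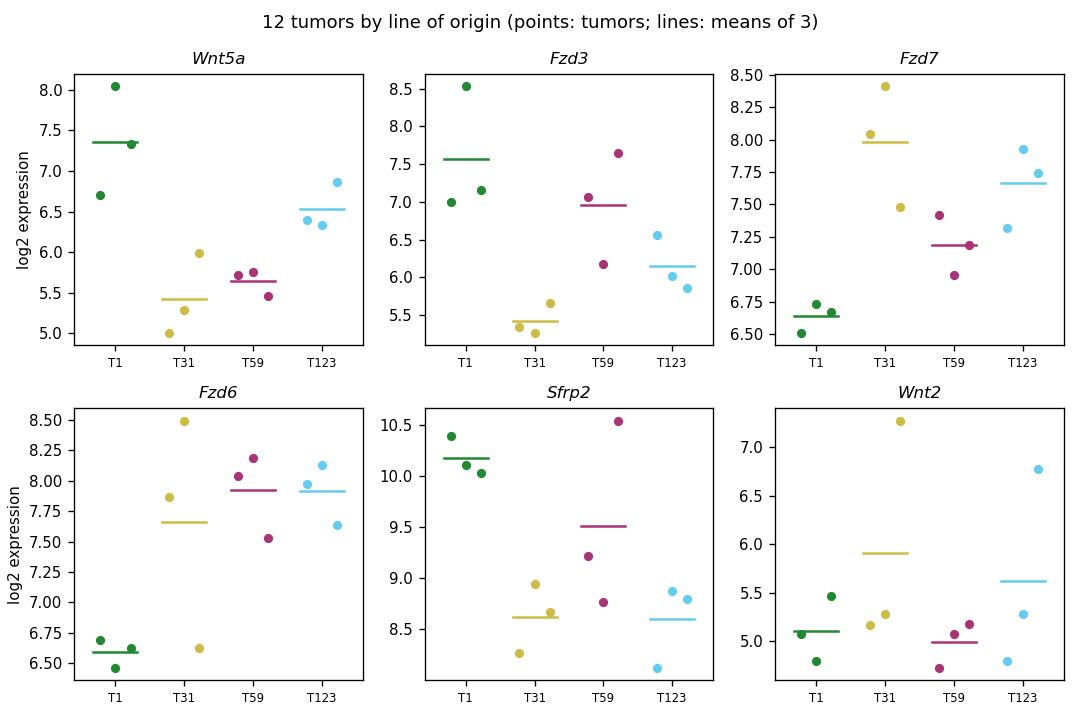
Log2 level of Wnt system genes in each of the 12 tumors, by line of origin, with the mean of the 3 tumors as a bar. Line 1 tumors are the highest on average in Wnt5a, Fzd3 and Sfrp2 and the lowest in Fzd7 and Fzd6.

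Fzd7 was at 6.51, 6.73 and 6.67 in line 1 tumors and at 6.96 to 8.41 in the 9 others, which did not overlap with them. Line 31 tumors had the highest mean, 7.98 ± 0.47 (SD, n = 3), with 7.66 ± 0.31 in line 123, 7.19 ± 0.23 in line 59 and 6.64 ± 0.12 in line 1. The F test gave a limma adjusted p of 0.0164 (0.061 without tumor 3 of line 1 and 0.051 without tumor 1 of line 31), and line 1 differed by −0.97 ± 0.19 (adjusted p = 0.0115; 0.0601 without its tumor 3).

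Fzd3 was at 6.998, 8.54 and 7.16 in line 1 tumors, at 7.06, 6.18 and 7.64 in line 59, at 6.57, 6.02 and 5.86 in line 123 and at 5.34, 5.26 and 5.66 in line 31. Lines 1 and 59 overlapped, and line 31 lay below all other tumors. The F test gave a limma adjusted p of 0.0299, which rose to 0.0582 to 0.0915 without tumor 3 of line 1, tumor 1 or 2 of line 31, tumor 1 of line 59 or tumor 2 or 3 of line 123. Line 1 differed by 1.39 ± 0.33 (adjusted p = 0.0341), and leaving out those 6 tumors or tumor 2 of line 1 singly gave 0.0522 to 0.175. Without tumor 2 of line 1, at 8.54, the difference itself was 0.90.

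Sfrp2 was at 10.39, 10.11 and 10.03 in line 1 tumors and at 8.12 to 9.22 in the others, except for 10.54 in the third tumor of line 59. Line 1 differed by 1.26 ± 0.30 (2.40-fold, limma adjusted p = 0.0335), and the F test did not pass (0.0505). The line 1 call ended after quantile normalization (adjusted p = 0.0656) and in 1 fit of all 27 arrays (0.615). Fzd6 was at 6.69, 6.46 and 6.62 in line 1 tumors and at 7.53 to 8.49 in the others, except for 6.62 in the third tumor of line 31. Line 1 differed by −1.24 ± 0.29 (2.37-fold lower, adjusted p = 0.0324; F test 0.0958). Both line 1 calls depended on single tumors: 7 tumors for Sfrp2 (each of line 1, tumor 1 of line 31, tumor 1 of line 59, tumors 1 and 3 of line 123; adjusted p 0.0514 to 0.118) and 8 for Fzd6 (each of line 1, tumor 1 of line 31, tumors 1 and 2 of lines 59 and 123; 0.0555 to 0.14).

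No gene of the set passed for line 31, 59 or 123 against the mean of the others (0 of 39 each, limma; background 1.39%, 1.17% and 0.848%). At an unadjusted p under 0.05 there were 6, 3 and 5 of the 39, close to the 14.2%, 12.8% and 12.2% of all genes. In line 31 tumors Fzd7 (0.82) and Fzd3 (−1.47) both had an adjusted p of 0.0541 and Wnt5a (−1.09) had 0.0624. In line 59 tumors Dkk3 had −0.74 (0.0732), and in line 123 tumors 0.64 (0.118). Groups did not overlap for Fzd7 and Wnt3a in line 1 (2 genes; 5.11% of all genes), where Wnt3a was above background in no tumor and so has no order, Fzd3 and Sfrp1 in line 31 (2; 2.33%), Dkk3 in line 59 (1; 2.54%) and no gene in line 123 (0; 2.24%). Dkk2 and Wnt2 varied most between tumors of 1 line, with SDs within lines of 0.91 and 0.81. Wnt2 was at 7.27 in the third tumor of line 31 and 6.78 in the third of line 123, and at 4.73 to 5.46 in the other 10.

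Of the 68 further pathway genes 8 passed the F test: Frzb, another secreted Frizzled-related protein (adjusted p = 0.00349), the target gene Ccnd1 (0.00407), the R-spondin receptor Lgr5 (0.00931), Porcn (0.0223), Lef1 (0.0282), Vangl1 (0.0333), Bcl9 (0.034) and Ror2 (0.0441). In line 1 tumors Ccnd1 (−1.49), Porcn (−1.22), Lgr5 (−1.12) and Ndp (−0.85) were lower, and Lef1 (0.64) and Ror2 (0.55), the co-receptor of Wnt5a, higher. Axin2 (−0.23), Ctnnb1 (0.10) and Wls (0.0025) did not pass there. In these tumors the summed level of 7 endothelial markers was 10.69 to 11.10, against 9.08 to 10.14 in the 9 others. Among them Tek was at 9.50, 9.23 and 9.66 in line 1 tumors and at 5.40 to 5.93 in the 9 others. Of the 7 markers 2 passed as higher, and 7 had an unadjusted limma p under 0.05. The summed level of fibroblast markers was 12.82 to 13.16 against 11.43 to 12.79, and that of macrophage markers 11.74 to 12.10 against 12.08 to 13.07. Their part in the line 1 differences was not tested.

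For lines 31, 59 and 123 the culture and the tumors could be set side by side. Cell and tissue arrays appeared to have been normalized apart, so the tumors are described against their own line after joint quantile normalization of these 12 arrays, with no test. All 9 tumors lay above their own culture in 2 of the 39 genes, Sfrp2 and Dkk2 (5.13%, against 15.7% of all genes), and below it in 8 (20.5%, against 23.9%): Fzd2, Fzd5, Fzd8, Lrp5, Wnt3a, Wnt5b, Wnt8a and Wnt16. Wnt8a was above background on no cell or tumor array, so the order of its levels carries no meaning.

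Sfrp2 was at 4.91 in cultured line 31 and at 8.71, 9.45 and 9.05 in its tumors. It was at 4.80 in cultured line 59 and at 9.53, 9.20 and 11.01 in its tumors, and at 7.06 in cultured line 123 and 8.51, 9.39 and 9.17 in its tumors. The mean difference was thus 4.17, 5.11 and 1.96. Cultured lines 31 and 59 were not above background for Sfrp2 in the deposited values, so their differences have no exact size. Dkk2 was at 6.76, 5.93 and 7.27 in culture, and its mean difference was 1.30 in line 31, 2.70 in line 59 and 2.05 in line 123. Fzd3 differed by −2.51 in line 31 and −0.50 in line 123, where all 3 tumors of each lay below the culture, and by 0.09 in line 59. Fzd7 differed by 1.43 in line 31, 0.19 in line 59 and 0.44 in line 123. The same genes lay on 1 side by percentile within each array; with the values as deposited, 35 of the 39 lay on 1 side, and Sfrp2 and Dkk2 did not. Tumors also held the macrophage and fibroblast markers given above, and their part in the levels of Sfrp2 and Dkk2 was not tested.

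**Figure D5:**
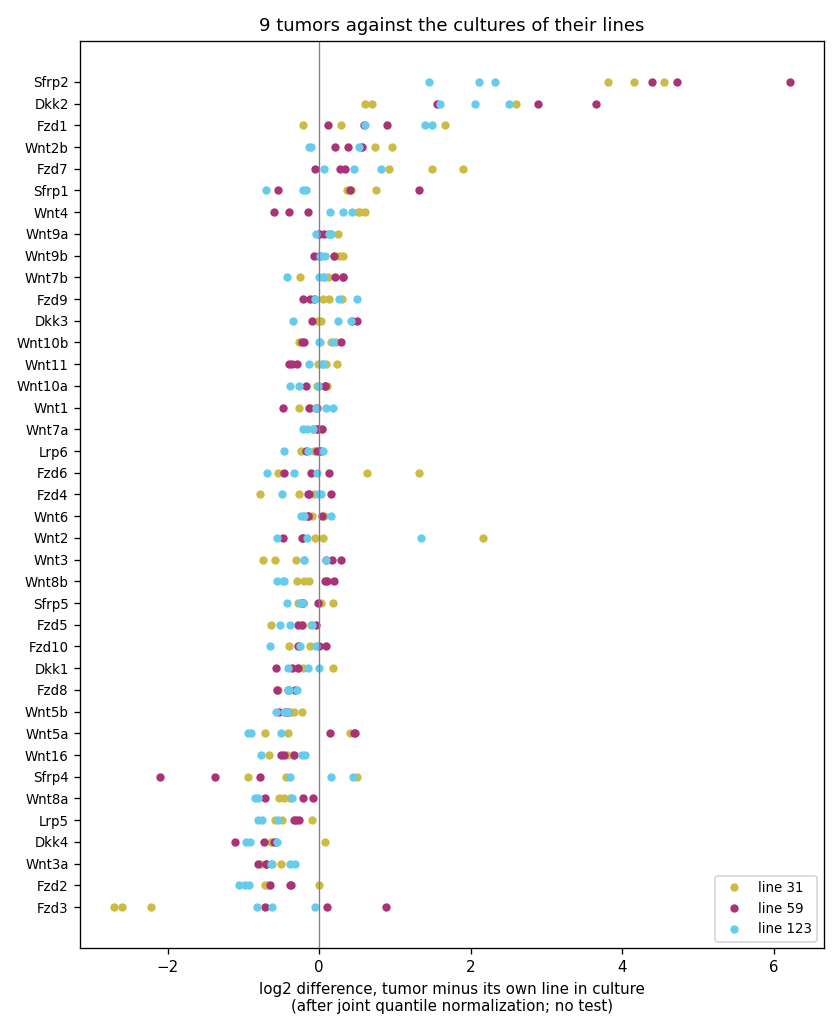
Difference of each single tumor of lines 31, 59 and 123 from the same line in culture, in log2 units after joint quantile normalization, for each of the 39 genes, with no test. The 3 tumors of a line average 4.17, 5.11 and 1.96 in Sfrp2 and 1.30, 2.70 and 2.05 in Dkk2. In Fzd3 they average −2.51 in line 31, 0.09 in line 59 and −0.50 in line 123.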

How the data were processed

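RNA of 27 mouse samples was measured on Affymetrix arrays, from 100 ng of total RNA each, per the labels' protocols. The authors deposited log2 values per probe set; the submitters' processing notes name RMA, Affymetrix Expression Console and GCOS and give no version. A genome build for the probes was not stated. Of 34760 probe sets, 21640 matched 1 gene and were kept; 1321 matched several and 11799 none. Of the 19937 genes, 954 had several probe sets and were read from the one with the highest mean. Cell and tissue arrays appeared to be normalized apart: 180 pairs of 1 cell and 1 tissue array shared no equal value (0), while 66 cell pairs shared 28 to 83 and 105 tissue pairs 41 to 626.

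Groups were compared with limma 3.58.1 (lmFit, eBayes) in R 4.3.3 on the deposited values, each comparison within 1 set of arrays, 2-sided, with Benjamini-Hochberg adjustment over all genes and calls at an adjusted p under 0.05. The code was tested on simulated data. The number of arrays limits the precision, most for the 2 NSC and 3 SubQ arrays. Every gene of the Wnt set could be named. Of 68 other pathway genes, the called ones with the 6 largest rises and 6 largest falls per comparison were named, and Axin2, Lef1, Ctnnb1, Porcn, Wls and Ror2 whatever their result. Tcf7 and Cfd were not analysed here. The genes and lists were chosen with earlier results of these data known. Summed marker levels are the log2 of the sum of linear values. Promoter sequences came from RefSeq tables and were searched for CTTTGA on both strands. Replicate numbers in the titles did not pair the samples: of 30 pairs of equally numbered tumor and SubQ arrays, deviations from group means correlated at −0.282 to 0.335, and 3 were over 0.1. Figures and counts used Python 3.11.15, pandas 2.3.3, numpy 2.4.6 and matplotlib 3.10.9.

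Other settings tried were averaged probe sets per gene, 2 filters on low values, moderation with trend and robust settings, array weights, array centring, quantile normalization, an added 2-fold threshold, 1 fit of all 27 arrays, each array left out in turn, the replicate number as a block, mutant or WT lines alone, tumor line as a random block and tumors of a line averaged.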

Additional observations from a re-analysis of the deposited data

Results flagged for a closer look

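Within the p53 mutant and the WT lines, 7 of 78 sets of values had 1 line apart from the rest by Dixon's criterion, where chance marks about 1 in 20 sets. The criterion is relative to the range of the set, so the gap can be small in log2 units, as for Fzd6 below. The sets share arrays and are not independent. Sfrp2 was at 12.88 in line 116, against 5.71 to 6.36 in the other mutant lines. In line 59, Fzd9 was at 7.54 (7.13 to 7.24 in the other mutant lines), Wnt3a at 7.10 (6.86 to 6.94) and Wnt4 at 8.53 (8.02 to 8.19). Among the WT lines, Fzd6 was at 10.18 in line 120 (9.997 to 10.01 in the others). In line 331, Wnt16 was at 7.73 (6.95 to 7.04) and Wnt3a at 6.44 (6.81 to 6.86).

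In 6 genes all 3 tumors of 1 line lay above their culture and all 3 of another line below it, after joint quantile normalization. These differences between lines were not tested. Mean differences of tumors from culture were 0.17 in line 31 and −0.14 in line 59 for Fzd9, 0.51 in line 31 and −0.36 in line 123 for Sfrp1, 0.18 in line 59 and −0.55 in line 31 for Wnt3, and 0.36 in line 59 and −0.78 in line 123 for Wnt5a. Wnt4 differed by 0.56 in line 31, 0.30 in line 123 and −0.38 in line 59, and Wnt8b by 0.13 in line 59, −0.21 in line 31 and −0.50 in line 123. Wnt3 and Wnt8b were above background on no cell or tumor array, so the order of their levels carries no meaning.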

How the results depend on the processing

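The count of Wnt system genes called between lines and NSCs, 7, was 11 with array weights and 4 with the 2-fold threshold, and 4 to 8 with 1 array left out (4 without NSC replicate 1). Against SubQ, the 30 calls were 17 of 24 tested among genes above the median level, 18 of 28 among genes above the receptor background, 15 with array weights, 15 with the 2-fold threshold and 24 to 31 with 1 array left out. After quantile normalization Fzd1 (−0.11), Fzd7 (−0.995) and Sfrp5 (0.25) had the opposite sign there. The F test among tumor lines, with 3 calls, gave 5 and 5 under those filters, 12 with array weights and 1 to 5 with 1 tumor left out. For line 1 tumors, with 5 calls, it was 13 with array weights and 1 to 6 with 1 tumor left out. Line 31, with 0 calls, had 3 and 2 under the filters, 4 with array weights, 1 with centring, 3 after quantile normalization and 0 to 2 with 1 tumor left out. Line 59 had 3 with array weights, 1 after quantile normalization and 0 to 1 with 1 tumor left out, and line 123 had 2 with array weights and 0 to 1. Between p53 mutant and WT lines every alternative run gave 0. Tumors against cultures were described on 1 side for 35 genes with deposited values, against 10. The causes were not tested.

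With the replicate number as a block, which could be fitted for lines against NSCs only through lines 3 and 28, the counts were 10 for lines against NSCs, 30 for tumors against SubQ, 2 for the F test, 4 for line 1 and 0 for lines 31, 59 and 123. The block added calls for Dkk2 (adjusted p = 0.0152), Sfrp1 (0.0399), Sfrp2 (0.00117) and Sfrp4 (0.00842) in the first, and ended that of Fzd8 there (0.0637) and of Fzd3 in the F test (0.0612) and in line 1 (0.0623). Every call against NSCs rests on 2 arrays and every call against SubQ on 3 arrays with a narrow range of values. P53 mutant and WT lines share no replicate number, so no block was fitted there.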
